A study of Homo sapiens with 6 samples.

Results

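The tricarboxylic acid (TCA) cycle enzymes were followed here through 9 transcripts, CS, IDH3A, IDH3B, OGDH, DLST, SUCLA2, SUCLG1, FH and MDH2, taken by symbol from the 21857 genes of the deposited tables. All 9 passed the filter on low counts. The cells were MV4;11, a human acute myeloid leukemia line whose labelled genotype is FLT3-ITD with MLL-AF4. 3 libraries came from control cells and 3 from cells given flavokawain A (FKA), a chalcone of kava, at 10 µg/ml, each for 48 h. Both groups are the same line with the same genotype, grown in the same medium, and the labels do not say what the control cells received in place of FKA. By the batch labels, the libraries form 3 pairs of a control with an FKA library. Nothing in the labels says how separate the cultures were. The p-values set group differences against the spread between these libraries, which may be technical.

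The cycle runs in the mitochondrial matrix. Citrate synthase joins acetyl-CoA to oxaloacetate, dehydrogenases then release carbon dioxide and hand electrons to NAD or to the respiratory chain, and malate dehydrogenase remakes oxaloacetate. Several steps are carried out by complexes of unlike subunits, so the transcripts of 1 step can be compared with each other. The cycle also supplies citrate, oxoglutarate and succinyl-CoA for the synthesis of lipids, amino acids and heme, and it is refilled from pyruvate and glutamine.

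Library totals ran from 29971171 to 36362421 counts, and the 9 transcripts together held between 25062 and 38636 counts per library. Single members had between 1191 and 16023 counts. All 9 markers fixed for the line had counts in every library. Of the 9, 4 were called (edgeR adjusted p under 0.05), where 59.8% of all tested genes were called. MPO, a granule enzyme, went from 34.7, 30.1 and 68.7 CPM (counts relative to library size, TMM-scaled) in controls to 0.777, 0.313 and 2.10 CPM with FKA (log2 fold change -5.36, edgeR adjusted p = 6.94e-05, and -6.34 without FKA replicate 3). CSF3R, a cytokine receptor, rose by 1.53 (edgeR adjusted p = 5.57e-06). HOXA9 was at -0.52 (edgeR adjusted p = 0.0437) and MEIS1 at 0.58 (0.0434), calls that each were lost under several alternatives, and the other 5 were not called. Of the 6 fixed fibroblast markers, the summed FPKM (counts per kilobase of gene and per fixed library size) was 0.0980 to 1.32 in controls, 0.145 in FKA replicate 1, and 7.88 and 7.15 in FKA replicates 2 and 3. None of the 4 erythroid markers was listed in the tables. The epithelial, B-cell and megakaryocyte sums ran from 8.30 to 12.6, from 0.134 to 0.507 and from 0 to 0.0863 FPKM. In none of these sums did the groups separate. The epithelial marker KRT18 alone was lower with FKA, without overlap in CPM (log2 fold change -0.55, edgeR adjusted p = 0.019). EPCAM and KRT8 were not called. The T and NK sum went from 22.1 to 26.6 FPKM in controls to 10.9 to 11.3 with FKA, nearly all of it NKG7, while CD3D had at most 1 count in a library. The part of these markers in the results was not tested.

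The cycle transcripts did not move as 1 block. CS, MDH2 and FH fell, by 0.72, 0.63 and 0.61 on the log2 scale, OGDH rose, SUCLA2 passed the test by a narrow margin, and IDH3A, IDH3B, SUCLG1 and DLST did not pass it. In bulk RNA, fewer cells with a transcript and less of it per cell cannot be told apart. In counts, 5 of 9 members were called by edgeR's quasi-likelihood test at an adjusted p under 0.05 (55.6%), against 59.8% of all 13531 tested genes, so the share called was near the background. By direction 4 of 9 were lower (44.4%, against 30.5% of all tested genes) and 1 was higher (11.1%, against 29.3%). The median log2 fold change of the 9 was -0.16, beside 0.01 over all tested genes. The FKA libraries lay above all controls in 2 members and below all controls in 4, where this held for 33.7% and 33.6% of all tested genes. No member reached a 2-fold change, a size at which 13.7% of tested genes were called lower and 11.9% higher.

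Citrate synthase (CS), which makes citrate and opens the cycle, had 469, 395 and 477 CPM in control replicates 1 to 3. With FKA it had 279, 254 and 280 CPM. Every FKA library was below every control library, and control replicate 2 was the lowest control. The level went from 447 ± 44.9 to 271 ± 14.7 CPM (mean ± SD, n = 3 per group), a change of -39.3%. The log2 fold change was -0.72 (SE 0.104, edgeR adjusted p = 0.000409), and within batches 1, 2 and 3 the log2 difference was -0.75, -0.64 and -0.77.

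Mitochondrial malate dehydrogenase (MDH2), which turns malate into oxaloacetate, stood at 223, 193 and 201 CPM in the controls and at 133, 124 and 140 CPM with FKA. The groups did not overlap. Its mean went from 206 ± 15.5 to 132 ± 8.12 CPM (SD, n = 3 per group). The log2 fold change was -0.63 (SE 0.0931, edgeR adjusted p = 0.000439).

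Fumarase (FH), which hydrates fumarate to malate, had 106, 105 and 128 CPM in the controls and 75.8, 71.9 and 75.1 CPM with FKA. The FKA libraries lay close together below all controls, of which control replicate 3 was the highest. The log2 fold change was -0.61 (SE 0.0980, edgeR adjusted p = 0.000726). The batch differences were -0.49, -0.55 and -0.77 for FH and -0.75, -0.63 and -0.52 for MDH2. The falls of CS, MDH2 and FH were called under each of the 17 alternatives, with ranges from -0.81 to -0.55, from -0.69 to -0.47 and from -0.67 to -0.43.

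**Figure D1:**
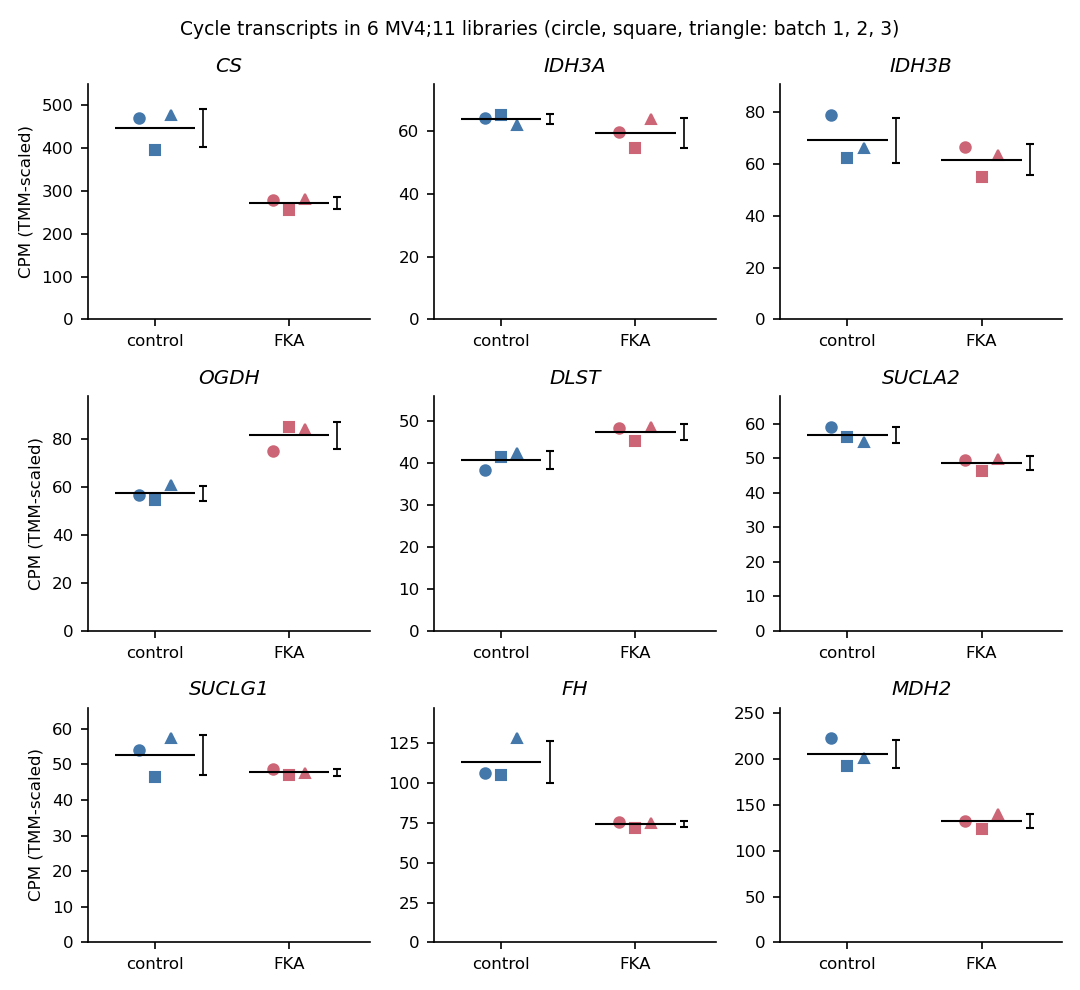
TMM-scaled CPM of the 9 cycle transcripts (vertical axis, linear from 0) in the control and FKA libraries. Symbols mark the batch, horizontal lines the group means and the bars beside them the SD of 3 libraries. The groups separate downward in CS, SUCLA2, FH and MDH2 and upward in OGDH and DLST, and they overlap in IDH3A, IDH3B and SUCLG1.

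The stretches before the starts of the 3 transcripts that fell together are shown because they let their promoters be compared. Each is the 250 bases before the annotated start, in the direction of the gene, from RefSeq (GRCh38.p14). CS lies at chr12:56300331-56300580 on the minus strand, MDH2 at chr7:76047856-76048105 on the plus strand and FH at chr1:241519756-241520005 on the minus strand. Capitals mark matches, on either strand, of 5 motifs: the GC box GGGCGG, the CCAAT box CCAAT, the ETS motif CCGGAAG, the E-box CACGTG and the NRF1 core TGCGCA.
CS: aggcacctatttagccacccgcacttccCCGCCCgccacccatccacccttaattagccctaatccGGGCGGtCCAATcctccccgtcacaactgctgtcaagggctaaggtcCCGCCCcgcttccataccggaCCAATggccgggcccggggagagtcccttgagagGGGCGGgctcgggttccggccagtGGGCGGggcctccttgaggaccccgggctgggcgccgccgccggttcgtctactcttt
MDH2: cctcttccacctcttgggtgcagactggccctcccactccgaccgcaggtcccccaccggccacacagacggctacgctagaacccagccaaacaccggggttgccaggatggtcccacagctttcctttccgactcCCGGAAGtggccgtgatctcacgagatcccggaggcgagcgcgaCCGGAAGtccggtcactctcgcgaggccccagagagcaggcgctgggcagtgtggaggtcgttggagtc
FH: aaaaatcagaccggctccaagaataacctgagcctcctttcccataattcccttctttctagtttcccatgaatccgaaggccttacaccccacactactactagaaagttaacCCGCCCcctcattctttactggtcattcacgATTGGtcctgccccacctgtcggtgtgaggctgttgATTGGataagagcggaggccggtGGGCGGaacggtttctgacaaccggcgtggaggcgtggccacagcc
The CS stretch held 5 GC boxes and 2 CCAAT boxes, and the FH stretch held 2 of each. The MDH2 stretch held 2 ETS motifs and no GC or CCAAT box. No match of 1 motif overlapped that of another in these 3 stretches. Of 35116 RefSeq stretches of the same length, 42.6% held a GC box, 32.0% a CCAAT box, 8.52% an ETS motif, 6.34% an E-box and 6.89% an NRF1 core. The table held 8 of the 9 members, without OGDH. Among these 8, a GC box was in 5, a CCAAT box in 3 (CS, SUCLA2 and FH), an ETS motif in 3 (IDH3B, DLST and MDH2), an NRF1 core in IDH3B and an E-box in 0. A match is a run of letters, not a measured site. CS and FH, and SUCLA2 with its narrow call, held both a GC box and a CCAAT box, and MDH2 held neither. A link between these motifs and the changes was not tested.

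OGDH and DLST encode the E1 and E2 subunits of the oxoglutarate dehydrogenase complex, which turns oxoglutarate into succinyl-CoA. OGDH had 56.4, 54.7 and 60.6 CPM in the controls and 75.0, 85.0 and 83.9 CPM with FKA. All FKA libraries were above all controls. The mean went from 57.2 ± 3.05 to 81.3 ± 5.50 CPM (SD, n = 3 per group), a rise of 42.0% (log2 fold change 0.51, SE 0.0902, edgeR adjusted p = 0.00127). FKA replicates 2 and 3, which had the highest fibroblast sums of all libraries, were the higher FKA libraries for OGDH. FKA replicate 1 had a fibroblast sum within the control range and an OGDH level above every control. A link between the fibroblast markers and OGDH was not tested. Without replicates 2 and 3 the log2 fold change was 0.38 (edgeR adjusted p = 0.0894), in a fit where the single FKA library is assumed to vary like the controls.

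DLST had 38.3, 41.4 and 42.5 CPM in the controls and 48.5, 45.3 and 48.7 CPM with FKA. The groups did not overlap, yet the log2 fold change of 0.22 (SE 0.0909, 95% interval 0.01 to 0.43) missed the threshold (edgeR adjusted p = 0.0622). It passed under 6 of the 17 alternatives, among them scaling by library totals (0.38, edgeR adjusted p = 0.00814).

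The complex shares its E3 subunit DLD, a lipoamide dehydrogenase, with the pyruvate dehydrogenase complex. DLD fell (-0.34, SE 0.0883, edgeR adjusted p = 0.00929), but lost its call with library totals (-0.18, edgeR adjusted p = 0.0895) and in the limma fits on FPKM. Its further subunit MRPS36 stood at -0.06 (edgeR adjusted p = 0.72) and at 0.10 with library totals. OGDHL, a relative of OGDH, averaged 0.0800 FPKM in controls and 0.0210 FPKM with FKA and was not tested.

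IDH3A and IDH3B encode the catalytic alpha and the beta subunit of the NAD-dependent isocitrate dehydrogenase. IDH3A had 64.2, 65.1 and 62.0 CPM in the controls against 59.8, 54.5 and 64.0 CPM with FKA. IDH3B had 78.7, 62.4 and 66.0 CPM in the controls against 66.6, 55.0 and 63.2 CPM with FKA. In both genes the groups overlapped. The log2 fold changes were -0.10 for IDH3A (95% interval -0.31 to 0.10, edgeR adjusted p = 0.354) and -0.16 for IDH3B (-0.43 to 0.10, edgeR adjusted p = 0.249). With library totals IDH3A was at 0.06. The gamma subunit IDH3G was at 0.04 (edgeR adjusted p = 0.757), and at -0.03 without control replicate 2. No alternative called IDH3A or IDH3B. The NADP-dependent mitochondrial enzyme IDH2, in contrast, went from 109 ± 19.1 to 54.4 ± 3.61 CPM (SD, n = 3 per group, edgeR adjusted p = 0.000247).

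Succinate-CoA ligase, which makes ATP or GTP from succinyl-CoA, pairs the alpha subunit SUCLG1 with 1 of 2 beta subunits, SUCLA2 for ATP or SUCLG2 for GTP. SUCLG1 had 54.0, 46.4 and 57.4 CPM in the controls and 48.8, 46.9 and 47.6 CPM with FKA, and the groups overlapped. Its log2 fold change was -0.14 (95% interval -0.37 to 0.09, edgeR adjusted p = 0.268), and 0.02 with library totals. SUCLA2 had 59.1, 56.1 and 54.7 CPM in the controls and 49.5, 46.3 and 49.8 CPM with FKA. Its groups did not overlap and the log2 fold change was -0.22 (SE 0.0856, edgeR adjusted p = 0.0479). That call held under only 2 of the 17 alternatives, DESeq2 and RLE scaling. With the batch as a block the edgeR adjusted p was 0.0507, and over the 6 fits that leave out 1 library each it ran from 0.0689 to 0.153. SUCLG2 fell further and held its call in all 17 alternatives (-0.86, SE 0.0960, edgeR adjusted p = 0.000101), from 48.0 ± 2.48 to 26.4 ± 1.35 CPM (SD, n = 3 per group).

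Some members share sequence with other annotated genes, and the use of strand in counting is not given in the sources used here. In GENCODE 29, ACSBG1 covers 38.2% of the exon bases of IDH3A on the opposite strand, but had only 3 to 7 counts per library. A coding gene known by a clone name, on the same strand, shares 3.44% of the exon bases of CS. GENCODE 29 names processed pseudogenes of SUCLA2 (3), DLST (1) and FH (1). None of these pseudogenes is a row of the tables, so reads of these transcripts may have been lost or shared.

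Succinate dehydrogenase, which oxidises succinate and is also complex II of the respiratory chain, was mixed as well. The flavoprotein subunit SDHA fell (-0.43, SE 0.0882, edgeR adjusted p = 0.0029), and so did the iron-sulfur subunit SDHB (-0.37, SE 0.111, edgeR adjusted p = 0.0175). SDHB lost its call with library totals (-0.21, edgeR adjusted p = 0.122), in the limma fits on FPKM, and without control replicate 3 (edgeR adjusted p = 0.0574), FKA replicate 1 (0.0627) or FKA replicate 2 (0.0664). The membrane anchor SDHC rose from 158 ± 5.88 to 275 ± 18.8 CPM (SD, n = 3 per group, log2 fold change 0.80, edgeR adjusted p = 0.0001), while the other anchor SDHD was at -0.09 (edgeR adjusted p = 0.324) and at 0.07 with library totals. Of the 11 further cycle genes, 10 were tested, 1 rose, 5 fell and 4 were not called, a called share of 60.0%, near the background of 59.8%, with a median of -0.22.

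**Figure D2:**
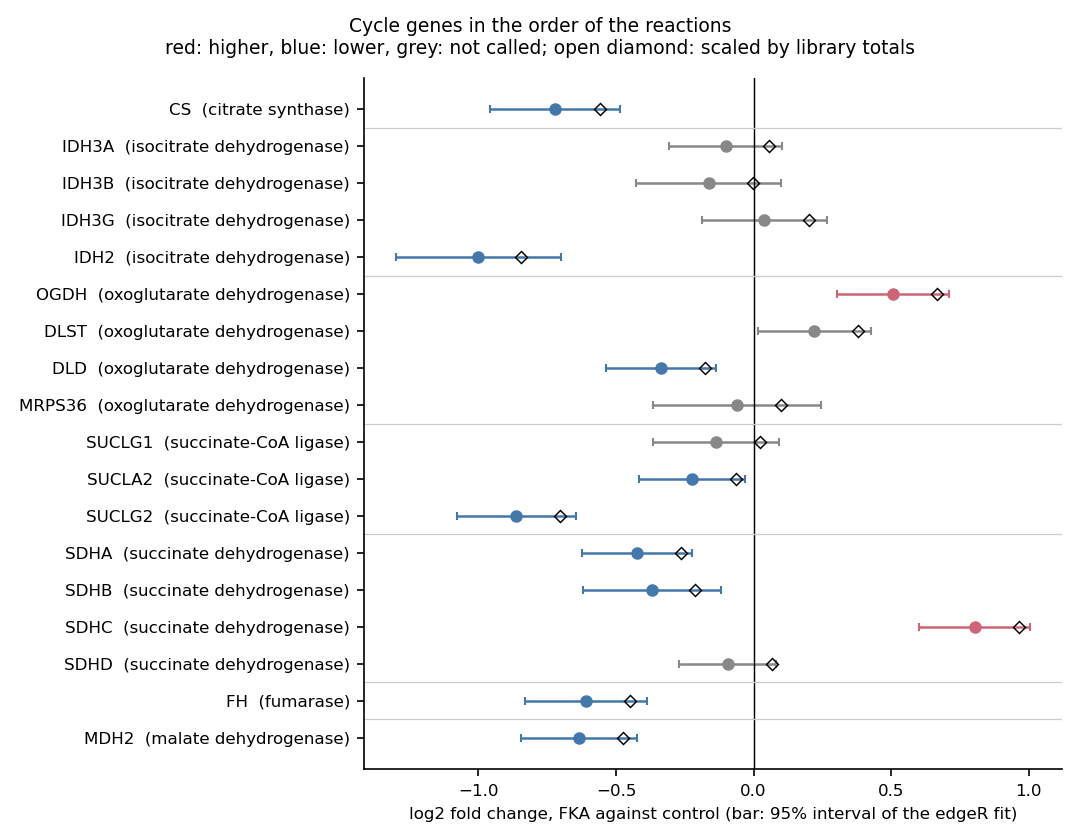
Log2 fold change of FKA against control (horizontal axis) for the cycle genes described here in the order of the reactions, with 95% intervals of the edgeR fit from 3 libraries per group. Red is higher, blue lower and grey not called, and open diamonds give the value with library totals as the only scaling. CS, FH and MDH2 lie left of 0 with both scalings and OGDH and SDHC right of 0, while IDH3A, MRPS36, SUCLG1 and SDHD change side with the scaling.

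The scaling moves all of these values by nearly the same amount. Library totals in place of TMM raised the log2 fold change of all genes by 0.16 in the median, and 60.3% of the called genes were then higher, against 48.9% with TMM. Under library totals 3 members were lower and 2, OGDH and DLST, higher. The deposited FPKM are scaled by library totals, so levels below follow that scale.

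Levels between genes were compared per length, in FPKM. In controls the order was CS (145 ± 10.0), MDH2 (89.5 ± 4.36), FH (46.1 ± 4.85), SUCLG1 (39.1 ± 3.14), IDH3B (35.4 ± 3.44), SUCLA2 (25.4 ± 1.02), IDH3A (13.9 ± 0.757), OGDH (11.0 ± 0.474) and DLST (10.4 ± 0.789), each as mean ± SD of 3 libraries. Neighbours in this order differed beyond their ranges except SUCLG1 and IDH3B, and OGDH and DLST. CS stood at percentile 97.9 of the tested genes and DLST at 65.2. With FKA the FPKM of FH (33.8 ± 0.664) came below SUCLG1 (39.7 ± 0.679) and overlapped IDH3B (35.3 ± 3.16), and that of OGDH (17.4 ± 1.24) came above IDH3A (14.5 ± 1.01). The 9 transcripts summed to 423, 398 and 426 FPKM in the controls and to 348, 327 and 349 FPKM with FKA. CS and MDH2 were the most abundant members in both groups.

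Ratios within a library do not depend on its scaling. For 7 pairs of subunits the log2 ratio of FPKM was compared by an exact two-sided permutation test, whose smallest p with 3 against 3 libraries is 0.1. The ratio of SUCLA2 to SUCLG2 was 1.83, 1.92 and 1.80 in the controls and 2.93, 2.90 and 2.82 with FKA. The mean log2 ratio rose from 0.89 ± 0.05 to 1.53 ± 0.03 (SD, n = 3), a difference of 0.64 without overlap (exact permutation p = 0.1). The ratio of DLST to DLD was 0.308, 0.380 and 0.347 in the controls and 0.486, 0.497 and 0.537 with FKA, a log2 difference of 0.56 without overlap (exact permutation p = 0.1).

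The ratio of OGDH to DLST went from 1.11, 0.991 and 1.07 to 1.16, 1.41 and 1.30, a log2 difference of 0.28 (exact permutation p = 0.1). IDH3B to IDH3G differed by -0.20, also without overlap (exact permutation p = 0.1). The other three pairs overlapped between the groups: IDH3A to IDH3B at 0.06 (exact permutation p = 0.7), IDH3A to IDH3G at -0.15 (p = 0.3) and SUCLA2 to SUCLG1 at -0.09 (p = 0.5). Adjusted over the 7 ratios the smallest p was 0.175, so none passed a threshold of 0.05, which this design cannot reach.

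**Figure D3:**
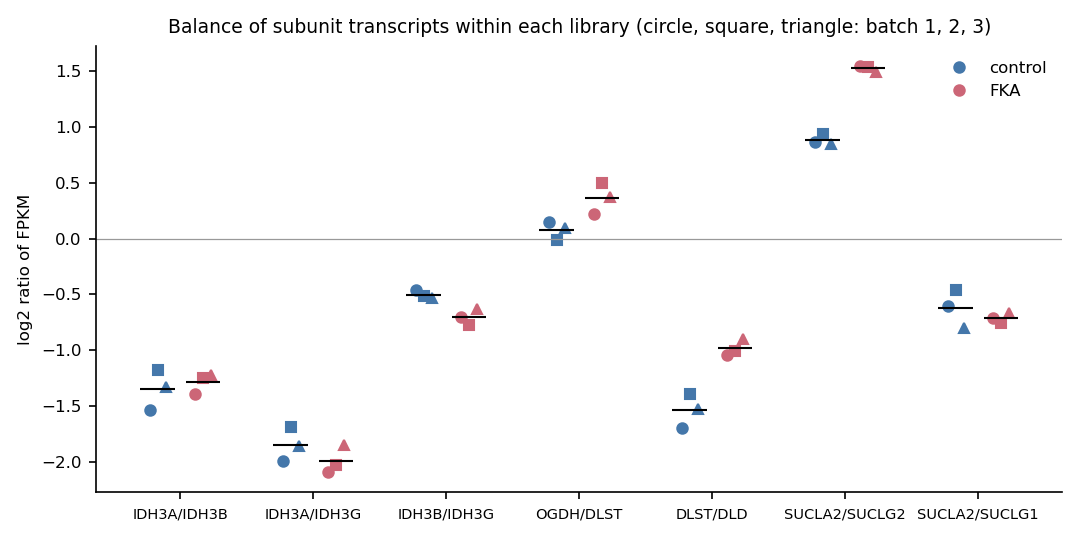
Log2 ratio of FPKM (vertical axis) for 7 pairs of subunit transcripts in each control (blue) and FKA (red) library, with symbols for the batch and lines for the means of 3 libraries. SUCLA2/SUCLG2, DLST/DLD and OGDH/DLST are higher and IDH3B/IDH3G lower in all FKA libraries, and the other pairs overlap.

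Pyruvate reaches the cycle through a carrier and the pyruvate dehydrogenase complex, which kinases (PDK) switch off and phosphatases switch on. Of the 13 listed genes of this entry 12 were tested, 3 rose, 4 fell and 5 were not called, a called share of 58.3%, near the background. The kinase PDK3 went from 8.95, 7.52 and 6.10 CPM in the controls to 20.1, 22.8 and 27.7 CPM with FKA (log2 fold change 1.65, SE 0.183, edgeR adjusted p = 0.000101). PDK1 went from 49.1, 36.6 and 40.7 CPM to 21.8, 14.9 and 17.03 CPM (-1.23, SE 0.167, edgeR adjusted p = 0.000282). Both kinases separated the groups, in opposite directions. With limma on log2(FPKM + 1), which shrinks changes of low levels, PDK3 was at 0.91 and PDK1 at -0.69, both still called.

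DLAT, the E2 subunit of the pyruvate complex, fell (-0.61, edgeR adjusted p = 0.00227), as did the carrier subunit MPC1 (-0.55, edgeR adjusted p = 0.00504). PDHB, the E1 beta subunit, rose by 0.31 (edgeR adjusted p = 0.0146). It lost its call without FKA replicate 2 (0.26, edgeR adjusted p = 0.0604) and with no filter on low counts (0.27, edgeR adjusted p = 0.0519). The phosphatase regulator PDPR rose by 0.40 (edgeR adjusted p = 0.0147), and lost its call without control replicate 2 (edgeR adjusted p = 0.0583), control replicate 3 (0.063) or FKA replicate 1 (0.0561). PDK2 fell by 0.63 on the log2 scale (edgeR adjusted p = 0.0282), and lost its call with library totals (edgeR adjusted p = 0.0941) and in the limma fits on FPKM. It also did so without control replicate 2 (0.0939), control replicate 3 (0.0709), FKA replicate 1 (0.0706) or FKA replicate 3 (0.0916).

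The E2 subunits DLST and DLAT work only with a lipoate group attached. LIAS, the lipoyl synthase, fell from 29.8, 27.9 and 27.8 CPM to 12.1, 11.3 and 13.7 CPM (-1.20, SE 0.120, edgeR adjusted p = 5.89e-05), and the transferase LIPT2 rose from a low level (mean FPKM 0.820 in controls and 1.78 with FKA, log2 fold change 0.96, edgeR adjusted p = 0.00489). LIPT1, which passes the lipoyl group to these subunits, was not called (-0.28, edgeR adjusted p = 0.153). Of 4 assembly factors of succinate dehydrogenase 2 fell, SDHAF3 (-0.47, edgeR adjusted p = 0.0141) and SDHAF4 (-0.49, edgeR adjusted p = 0.00899). The called share was 50%, against 59.8% of all tested genes. SDHAF3 was not called with library totals (-0.31, edgeR adjusted p = 0.0861) or in the limma fits on FPKM.

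Reactions that fill or drain the cycle fell in 5 of 7 tested genes and rose in 1, a called share of 85.7% against 59.8% of all tested genes (lower 71.4% against 30.5%), while 2 of the 9 listed genes were too low to test. The median was -0.69. Mitochondrial phosphoenolpyruvate carboxykinase (PCK2) went from 78.8, 114 and 101 CPM to 45.1, 23.2 and 15.8 CPM (-1.80, SE 0.331, edgeR adjusted p = 0.00149), and was at -1.13 without FKA replicates 2 and 3. Mitochondrial malic enzyme ME2 went from 131, 115 and 124 CPM to 49.7, 49.7 and 51.1 CPM (-1.30, SE 0.0840, edgeR adjusted p = 7.78e-06). Pyruvate carboxylase (PC) fell by 1.07 on the log2 scale (edgeR adjusted p = 0.000946). Glutamate dehydrogenase GLUD1 (-0.69, edgeR adjusted p = 0.000286) and the transaminase GOT2 (-0.43, edgeR adjusted p = 0.0062) were also lower. GOT2 lost its call with library totals (-0.27, edgeR adjusted p = 0.0613) and in the limma fits on FPKM.

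The cytosolic malic enzyme ME1, an NRF2 target, rose from 2.61, 6.04 and 1.90 CPM to 53.7, 124 and 76.7 CPM. All FKA libraries were above the controls, with a log2 fold change of 4.58 (edgeR adjusted p = 5.47e-05) that was 5.23 without control replicate 2 and 3.92 without FKA replicates 2 and 3. Of 5 further cytosolic enzymes listed 1 rose and 1 fell, a called share of 40%, against 59.8% of all tested genes. The transaminase GOT1 fell from 97.8 ± 8.19 to 35.98 ± 3.45 CPM (SD, n = 3 per group, log2 fold change -1.44, edgeR adjusted p = 1.26e-05), and the aconitase ACO1, also an iron sensor, rose by 0.57 (edgeR adjusted p = 0.00617). Over all companion genes 7 of 41 tested rose (17.1%, against 29.3% of all tested genes) and 18 fell (43.9%, against 30.5%), with a median of -0.21. The called share was 61.0%, near the background of 59.8%. Without FKA replicates 2 and 3, DLD, SDHA, SDHB, SDHAF3, SDHAF4, PDHB, DLAT, PDK2, PDPR, LIPT2 and ACO1 were no longer called.

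**Figure D4:**
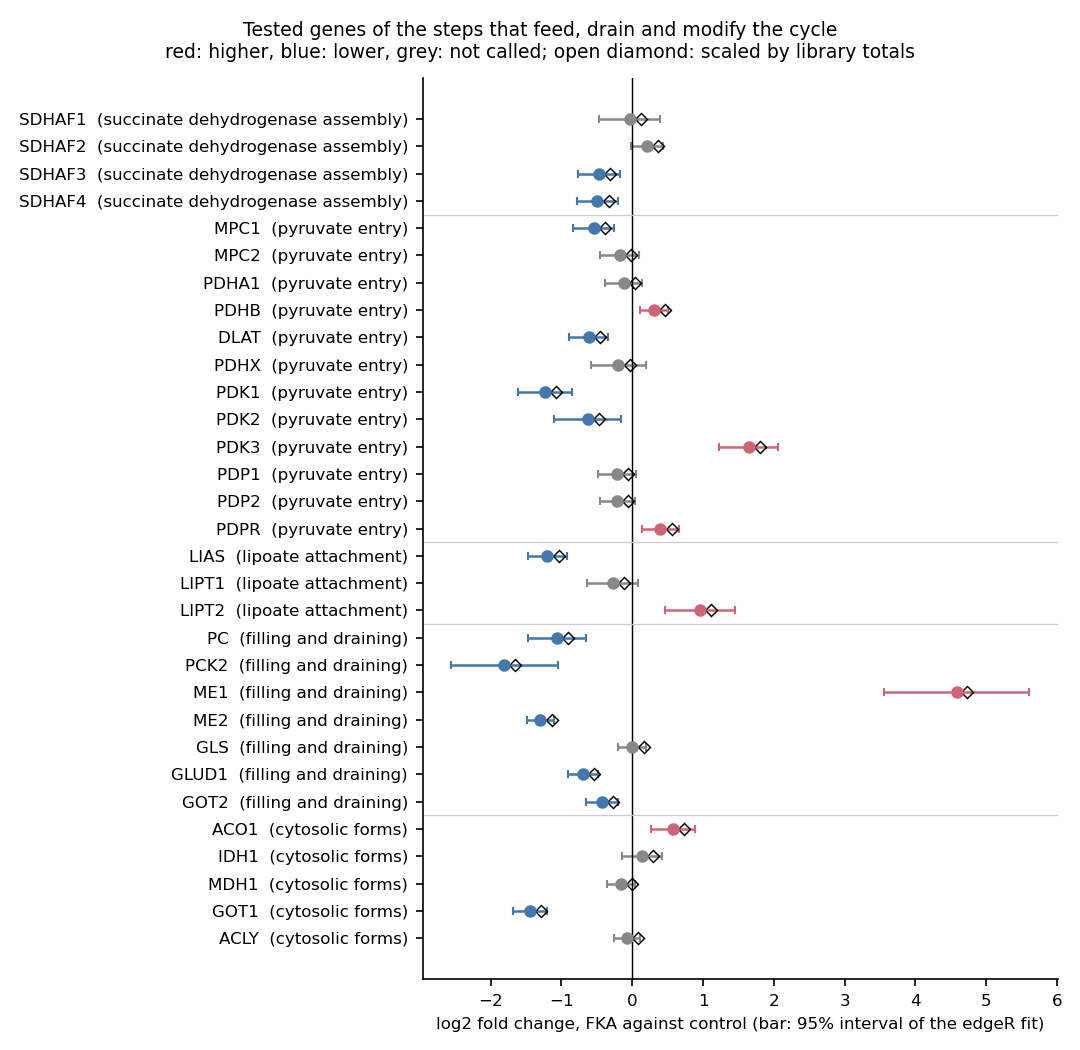
Log2 fold change of FKA against control (horizontal axis) for the 31 tested genes of succinate dehydrogenase assembly, pyruvate entry, lipoate attachment, filling and draining reactions and cytosolic forms, with 95% intervals of the edgeR fit from 3 libraries per group. Red is higher, blue lower, grey not called, and open diamonds show library totals. ME1 lies far to the right at 4.58, PDK3 at 1.65, and PCK2, GOT1 and ME2 are among the lowest.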

How the data were processed

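RNA sequencing measured transcripts in 6 MV4;11 libraries. The authors deposited whole-number read counts per gene and FPKM values for the same 21857 genes. Not given in the sources used here are aligner, counter, annotation and strand. GRCm38 and mm10, names of mouse builds, stand in the submitters' processing notes, while 94.5% of the symbols matched human RefSeq genes, so coordinates are printed only for RefSeq promoters. The deposited FPKM equalled count over column total and 1 length per gene (largest relative deviation 8.4e-07). Replicates differed by more than sampling noise (chi-square per degree of freedom 21.7 to 66.3).

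Counts were fitted in R 4.3.3 with edgeR 4.0.16 (filterByExpr, 13531 genes, TMM, quasi-likelihood test, two-sided, Benjamini-Hochberg over all tested genes, threshold 0.05, coefficient of variation 15.4%). Intervals are 95%. The batch label equals the replicate number and pairs the libraries by the labels. Deviations from group means correlated at 0.11, 0.43 and -0.08 in batches 1 to 3. Alternatives were the batch block, DESeq2 1.42.0, other scalings and filters, limma 3.58.1 on log2(FPKM + 1) and log2(FPKM + 0.1), leaving out each library, and leaving out FKA replicates 2 and 3. On simulated counts for FKA against control (13321 genes) the test recovered 26.5% of 49 genes changed 1.5-fold and 92.0% of 50 changed 2-fold. It called 7 of 13122 unchanged genes. The simulation gave all genes the same coefficient of variation and changed far fewer genes than were called in the data.

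Members and gene lists were chosen with earlier results of these data known. The rule named all 9 members, the further cycle genes, and up to 4 called genes with the largest change of each other list. MPC1, PDHB, PDPR, GLUD1, GOT2, LIPT1, MPO, CSF3R, HOXA9, MEIS1, ACSBG1, NKG7 and CD3D were named after values were seen. So were KRT18, EPCAM and KRT8, and the promoter motifs were chosen after values were seen. Some genes are not reported here by name.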

Additional observations from a re-analysis of the deposited data

How the results depend on the processing

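CS, FH and MDH2 kept their call and direction under all 17 alternatives and OGDH under 16. Without FKA replicates 2 and 3 together OGDH stood at 0.38 and SUCLA2 at -0.21, neither called, 0 members were called higher, and the companion genes had 3 higher and 11 lower, within 2020 higher and 2599 lower genes in all; this fit has 1 FKA library. SUCLA2 also missed the threshold with the replicate block (-0.22, edgeR adjusted p = 0.0507), upper-quartile factors (-0.16), library totals (-0.064), no filter (-0.26), at least 1 CPM in 3 libraries (-0.20), and limma on log2(FPKM + 1), with and without a mean FPKM of at least 1 (-0.062), and on log2(FPKM + 0.1) (-0.064). Leaving out 1 library at a time it ran from -0.26 to -0.19 and was never called. The replicate block changed no other member's call.

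DLST was called, so that 2 members were higher, with upper-quartile factors (0.29), library totals (0.38), at least 1 CPM in 3 libraries (0.24), and limma with a pseudocount of 1, with and without the mean filter (0.35), and of 0.1 (0.38). Some transcripts that were not called changed sign with scalings near library totals, while others, such as IDH3B, kept it. With library totals IDH3A was at 0.056, SUCLG1 at 0.024, SDHD at 0.066 and MRPS36 at 0.10. With upper-quartile factors MRPS36 was at 0.0077. With limma on log2(FPKM + 1), with and without the mean filter, IDH3A was at 0.051, SUCLG1 at 0.026, SDHD at 0.065, MRPS36 at 0.089 and MDH1 at 0.00019. On log2(FPKM + 0.1) they were at 0.054, 0.027, 0.066, 0.095 and 0.00024. MRPS36 ran from -0.15 to 0.026 in fits without 1 library and was at 0.096 without FKA replicates 2 and 3, and IDH3G ran from -0.033 to 0.11 in fits without 1 library, below 0 without control replicate 2 or FKA replicate 1. In the median over all genes, the log2 fold change shifted by 0.068 with upper-quartile factors and by 0.158 with library totals. The limma fits shifted it by 0.15 to 0.158. For sign changes in fits with fewer libraries the cause was not tested. In simulation 26.5% of changes of 1.5-fold were recovered, but there few genes changed and all genes had the same coefficient of variation. In the data 59.8% of tested genes were called, so the simulated share does not carry over to the members. Small member differences may still be missed with 3 libraries per group.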

Other observations

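Some enzymes of the cycle, and of reactions that fill or drain it, have a cytosolic form. The ratio of the forms within a library does not depend on scaling. These pairs were chosen after values were seen and carry no test. MDH2 to MDH1, the mitochondrial to the cytosolic malate dehydrogenase, had FPKM ratios of 1.28, 1.02 and 0.981 in the controls and 0.799, 0.711 and 0.833 with FKA. IDH2 to IDH1 went from 0.721, 0.714 and 0.832 to 0.306, 0.422 and 0.316. The transaminases moved the other way, with GOT2 to GOT1 at 0.388, 0.391 and 0.380 in the controls and 0.652, 0.852 and 0.862 with FKA. In each of these pairs the groups did not overlap.

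Set against CS in the same way, OGDH to CS went from 0.0711, 0.0818 and 0.0752 to 0.159, 0.198 and 0.177, a log2 difference of 1.22. CS fell the most of the 9 members (-0.72), so the ratio to CS rises for any gene that changed little. MDH2 to CS (0.08) and FH to CS (0.11) overlapped between the groups. The ratios of the remaining members to CS were higher in every FKA library than in every control. The share of all tested genes whose ratio to CS separated the groups was not computed. In CPM, the FKA libraries lay above all controls in 33.7% of tested genes and below them in 33.6%. SDHC to SDHA, subunits of 1 complex, went from 0.423, 0.457 and 0.391 to 0.902, 1.11 and 0.964. The kinase ratio PDK3 to PDK1 went from 0.212, 0.239 and 0.174 to 1.07, 1.78 and 1.89. The ratios in this paragraph were also chosen after values were seen, carry no test and restate the fold changes given above.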
